A study of Mus musculus with 64 samples.

Results

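The 6 genes described here, part of the cardiac high-energy phosphate system, were followed across 64 mouse hearts: the creatine kinases Ckm, Ckmt2 and Ckb, the creatine transporter Slc6a8, the adenylate kinase Ak1 and the adenine nucleotide translocase Slc25a4. The group was chosen by function, with earlier results of these data known, from the 16913 genes of the count table. All 6 were present and were tested. Creatine kinases move phosphate between ATP and creatine. The mitochondrial enzyme loads phosphate onto creatine where ATP leaves the mitochondrion, and the cytosolic enzymes return it to ADP beside the myofibrils, so that phosphocreatine buffers ATP during each beat. Adenylate kinase regenerates ATP from ADP, the translocase exchanges ADP for ATP across the inner mitochondrial membrane, and creatine itself is taken up from blood because heart muscle makes little of it.

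All mice were C57BL/6J. Transgenic mice (TG) carried the cTnT-delta160E form of cardiac troponin T, a model of hypertrophic cardiomyopathy, and were compared with non-transgenic mice (nTG). Mice of each genotype and sex were either sedentary (sed) or underwent high-intensity interval training (HIIT) on a treadmill, 3 days a week for 6 weeks, in sessions of 31 minutes with 4 intense and 4 mild intervals. The groups held 7 sedentary nTG males, 8 trained nTG males, 9 sedentary TG males, 8 trained TG males, 8 sedentary nTG females, 10 trained nTG females, 8 sedentary TG females and 6 trained TG females. The promoter that drives the transgene and the age of the mice are not given in the sources used here. RNA of whole heart tissue was sequenced after removal of ribosomal RNA.

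Taken by their own names, many columns of the gene table went against the labels for sex and genotype. No label gives another order, and the pairing used here rests on the values: each lncRNA column was given the gene column that correlated best with it over 389 autosomal transcripts, and every one of the 64 pairs was the best in both directions (r from 0.599 to 0.863, with no second-best above 0.404). With this pairing no library went against its label for sex or for genotype, whereas 32 and 30 did when columns were taken by their own names. All values below use this pairing and depend on it: with columns by name, 0 of the 6 genes were called in each comparison in which they are reported as called here. Tnnt2, the gene of the transgene product, was 2665 to 3428 CPM (counts per megacount) in the 33 nTG libraries and 6903 to 12001 CPM in the 31 TG libraries. These Tnnt2 values use plain library totals, whereas other CPM use TMM-scaled library sizes unless plain totals are named. Library totals ranged from 34.6 to 67.1 megacounts. All 8 cardiomyocyte markers were abundant in every library, with Myh6 at 29499 CPM or more, while 8 of 11 skeletal muscle markers, Myh1, Myh2, Myh4 and Tnnt3 among them, were not in the table and the other 3 were at 15.3 CPM or less. A male trained TG heart, replicate 4, had the highest fibroblast and atrial sums of all libraries (1421 and 682 CPM), and a male sedentary TG heart, replicate 5, the highest blood sum (4603 CPM), so the calls of the 6 genes in comparisons that hold these hearts are also given without them. A female sedentary nTG heart, replicate 4, had the highest fibroblast sum of any nTG heart (1109 CPM). It also had the lowest Ckm, Ckmt2 and Slc25a4 of its group. It was left out only as part of the 64 fits without 1 library.

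Per kilobase of exon, the mitochondrial kinase and the translocase were the most abundant of the 6 transcripts. Ckmt2, the sarcomeric mitochondrial creatine kinase, averaged 1197 CPM per kb and ranked 30 among 16887 annotated genes. Slc25a4, the main translocase of striated muscle, averaged 1157 CPM per kb and ranked 31. Ckm, the muscle-type cytosolic kinase that binds the M-band, averaged 571 CPM per kb and ranked 54. Ak1, the cytosolic adenylate kinase, averaged 175 CPM per kb, and Slc6a8 averaged 58.5 CPM per kb. Ckb, the brain-type cytosolic kinase, was the lowest at 15.4 CPM per kb and ranked 1930. Of the summed creatine kinase signal per kb, Ckmt2 held 67.1% and Ckb 0.871%, with Ckm making up the rest. With the longest coding transcript as length instead of all exons, an alternative chosen after seeing the data, Slc25a4 came to 1415 CPM per kb and passed Ckmt2, which stayed at 1197, so the order of these 2 depends on the length used. Ckb came to 30.4 CPM per kb, the lowest of the 6, and to 1.67% of the kinase signal.

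The genes lie on different chromosomes (GRCm38, GENCODE M21): Ckm at chr7:19404776-19422841 on the plus strand, Ckmt2 at chr13:91853387-91876885 on the minus strand, Ckb at chr12:111669361-111672338 on the minus strand, Slc6a8 at chrX:73673150-73682502 on the plus strand, Ak1 at chr2:32621758-32635058 on the plus strand and Slc25a4 at chr8:46206797-46211284 on the minus strand. Exons of Ckm share 451 bases with the antisense gene A930016O22Rik, which was at 3.17 CPM or less in every library. Whether the counting used strand is not given in the sources used here, so reads of that stretch cannot be assigned to one strand. The same holds for 84 exon bases that Ckmt2 shares with the antisense gene 1700119I11Rik, whose level was not analysed here. The 250 bases before the RefSeq start site are printed for 5 of the 6 genes: Ckm, Ak1 and Slc25a4, which were lower in TG hearts, Ckb, which was lower after training in TG males, and Ckmt2, which passed no test in the edgeR fit of all 64 libraries. The RefSeq start sites used for Ckm and Slc25a4 lie inside the GENCODE spans given above. The window of Ckm thus lies wholly, and that of Slc25a4 partly, within the GENCODE gene. For Ak1, RefSeq gives 4 start sites, and the outermost is shown; which of them the hearts used cannot be read from gene counts. Each is given 5′ to 3′ on the gene's own strand (RefSeq, GRCm38.p6), at chr7:19410844-19411093 for Ckm, chr13:91876886-91877135 for Ckmt2, chr12:111672339-111672588 for Ckb, chr2:32621508-32621757 for Ak1 and chr8:46211063-46211312 for Slc25a4, and capitals mark matches to the motifs named after the sequences.
Ckm: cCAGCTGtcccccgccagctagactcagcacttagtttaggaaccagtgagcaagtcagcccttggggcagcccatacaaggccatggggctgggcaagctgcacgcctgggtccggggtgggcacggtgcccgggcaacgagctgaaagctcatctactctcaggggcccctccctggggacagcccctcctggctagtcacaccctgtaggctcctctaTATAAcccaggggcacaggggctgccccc
Ckmt2: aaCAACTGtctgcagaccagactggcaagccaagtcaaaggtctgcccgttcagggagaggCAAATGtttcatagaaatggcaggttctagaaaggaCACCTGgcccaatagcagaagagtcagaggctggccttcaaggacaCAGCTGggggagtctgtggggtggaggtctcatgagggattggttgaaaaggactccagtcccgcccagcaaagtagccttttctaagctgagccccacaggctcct
Ckb: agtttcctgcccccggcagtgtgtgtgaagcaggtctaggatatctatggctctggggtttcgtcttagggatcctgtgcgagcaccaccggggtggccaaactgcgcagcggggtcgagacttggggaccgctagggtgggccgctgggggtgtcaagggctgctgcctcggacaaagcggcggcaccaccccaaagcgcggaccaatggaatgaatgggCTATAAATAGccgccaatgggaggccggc
Ak1: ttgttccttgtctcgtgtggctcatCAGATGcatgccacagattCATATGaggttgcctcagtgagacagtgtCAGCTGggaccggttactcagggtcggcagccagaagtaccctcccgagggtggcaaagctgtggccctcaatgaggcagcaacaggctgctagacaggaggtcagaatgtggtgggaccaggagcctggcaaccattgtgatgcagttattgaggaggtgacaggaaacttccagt
Slc25a4: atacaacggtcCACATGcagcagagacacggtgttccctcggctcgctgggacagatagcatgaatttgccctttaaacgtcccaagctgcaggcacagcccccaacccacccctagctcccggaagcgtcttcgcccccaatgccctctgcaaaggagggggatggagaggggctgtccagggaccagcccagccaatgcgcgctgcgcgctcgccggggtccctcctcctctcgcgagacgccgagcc
The TATA box core was searched as TATAA on both strands. The E-box, bound by myogenic and other helix-loop-helix factors, was searched as CANNTG. The half-site of estrogen-related receptors was searched as AAGGTCA, and the 10-base MEF2 and CArG motifs by their usual consensus. Among 32851 mouse promoter windows of the same length, 22.8% held the TATA core, 66.2% an E-box, 4.08% the half-site, 2.92% the MEF2 motif and 1.47% the CArG motif. The TATA core began at position -29 of Ckm and at position -28 of Ckb, counted from the start site, and the match in Ckb lay inside a MEF2 match from -29 to -20. The window of Ckmt2 held 4 E-boxes, the printed window of Ak1 held 3, those of Ckm and Slc25a4 held 1 each, and that of Ckb held none. No printed window held the half-site or the CArG motif. The window of another Ak1 start site, not printed, held the half-site from -90 to -84. These are matches of letters only.

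The first question was whether the hearts of TG mice differed from those of nTG mice of the same sex and training. Ckm, Ak1 and Slc25a4 were lower in TG hearts in sedentary males, trained males and trained females, where they fell by 12.2% to 17.4% after TMM scaling. With plain library totals in the fit, an alternative chosen after seeing the data, the same 9 falls were 7.26% to 13.98%, and 3 of them no longer passed: Ckm in sedentary males (-0.13, adjusted p = 0.056) and trained females (-0.12, adjusted p = 0.0856), and Slc25a4 in trained females (-0.11, adjusted p = 0.0804). Ckmt2 and Slc6a8 passed the test in none of the 4 comparisons, and Ckb passed it only in the mean over all 4. In sedentary females none of the 6 passed. Plain totals also raised the median log2 fold change of all genes from -0.0052 to 0.061 in sedentary males, from 0.011 to 0.073 in trained males and from 0.0020 to 0.079 in trained females. The share of all calls that were lower in TG hearts moved with it, from 54.5% to 28.4%, from 59.5% to 26.7% and from 63.7% to 26.8% in the same order, and from 63.7% to 74.0% in sedentary females. All p-values are from edgeR's quasi-likelihood test, adjusted over all 16913 genes with a threshold of 0.05.

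In sedentary males, Ckm ranged from 1594 to 2044 CPM (median 1876) in 7 nTG hearts and from 1355 to 1745 CPM (median 1640) in 9 TG hearts. All 9 TG hearts were below the nTG median, and the ranges overlapped. Its log2 fold change was -0.19 (SE 0.059, adjusted p = 0.0117), so that Ckm fell by 12.6%, and -0.16 (adjusted p = 0.0467) without replicate 5 of the sedentary TG males. In trained males, Ckm ranged from 1661 to 2108 CPM (median 1814) in 8 nTG hearts and from 1179 to 1775 CPM (median 1547) in 8 TG hearts, and 7 of the 8 TG hearts were below every nTG heart. This gave a log2 fold change of -0.28 (SE 0.058, adjusted p = 0.00061), or -0.23 (adjusted p = 0.0031) without replicate 4 of the trained TG males. In sedentary females, Ckm ranged from 1461 to 1813 CPM (median 1671) in 8 nTG hearts and from 1417 to 1650 CPM (median 1567) in 8 TG hearts. All 8 TG hearts lay below the nTG median, but the log2 fold change of -0.089 (SE 0.058, adjusted p = 0.48) did not pass. In trained females, Ckm ranged from 1600 to 1888 CPM (median 1752) in 10 nTG hearts and from 1413 to 1634 CPM (median 1533) in 6 TG hearts, 5 of which were below every nTG heart. The log2 fold change was -0.20 (SE 0.061, adjusted p = 0.0167), and it no longer passed without TG replicate 4 (adjusted p = 0.055) or without TG replicate 6 (adjusted p = 0.053).

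Ckmt2, which works in the mitochondrial intermembrane space, passed the test in no stratum. In sedentary males it ranged from 1600 to 1902 CPM (median 1832) in nTG and from 1546 to 1870 CPM (median 1681) in TG hearts. In trained males it ranged from 1723 to 2214 CPM (median 1893) in nTG and from 1485 to 1996 CPM (median 1913) in TG hearts. The groups overlapped almost fully in both. Sedentary females ranged from 1439 to 1905 CPM (median 1689) in nTG and from 1607 to 1850 CPM (median 1644) in TG hearts. Trained females ranged from 1696 to 2003 CPM (median 1817) in nTG and from 1641 to 1917 CPM (median 1803) in TG hearts. The 4 log2 fold changes lay between -0.057 and 0.018, and their mean was -0.030 with a 95% interval from -0.082 to 0.023 (adjusted p = 0.40), which turned to 0.020 with plain library totals.

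Ckb was a minor transcript throughout. In trained males it ranged from 38.96 to 49.8 CPM (median 45.3) in nTG and from 34.5 to 44.4 CPM (median 39.4) in TG hearts, with all 8 TG hearts below the nTG median. That log2 fold change of -0.17 (SE 0.062, adjusted p = 0.058) did not pass, though it did in 4 of 64 refits, those without TG replicate 3 or 6 or nTG replicate 6 or 8 (adjusted p from 0.0311 to 0.0397). In trained females Ckb ranged from 38.1 to 51.998 CPM (median 45.6) in nTG and from 35.3 to 44.5 CPM (median 40.8) in TG hearts, a log2 fold change of -0.14 (SE 0.064, adjusted p = 0.14). The sedentary groups overlapped widely, with medians of 47.1 and 45.8 CPM in nTG and TG males and 46.1 and 46.2 CPM in nTG and TG females. Averaged over the 4 strata, Ckb was lower in TG hearts by a log2 fold change of -0.11 (SE 0.031, adjusted p = 0.0050), which did not pass with plain library totals (-0.055, adjusted p = 0.20).

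Slc6a8, which imports creatine into the myocyte together with sodium and chloride, passed in no stratum either. The medians of nTG and TG hearts were 300.1 and 320.0 CPM in sedentary males, 294.9 and 288.3 CPM in trained males, 281.9 and 298.8 CPM in sedentary females, and 308.1 and 293.5 CPM in trained females. Single hearts ranged from 246 to 386 CPM, and both of these extremes were sedentary TG females. The 4 log2 fold changes lay between -0.085 and 0.080, none passed, and their mean was -0.0092 with a 95% interval from -0.077 to 0.058, which turned to 0.041 with plain library totals.

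Ak1, which turns ADP into ATP and AMP, showed these differences with little overlap. In sedentary males it ranged from 447 to 522 CPM (median 498) in nTG and from 383 to 469 CPM (median 417) in TG hearts, 6 of 9 of which were below every nTG heart. Its log2 fold change was -0.20 (SE 0.043, adjusted p = 0.00045), or -0.17 (adjusted p = 0.0025) without replicate 5 of the sedentary TG males. In trained males it ranged from 447 to 535 CPM (median 497) in nTG and from 356 to 462 CPM (median 436) in TG hearts, and 6 of 8 TG hearts were below every nTG heart. The log2 fold change was -0.20 (SE 0.043, adjusted p = 0.00056), or -0.17 (adjusted p = 0.0028) without replicate 4 of the trained TG males. In trained females the groups did not overlap: 10 nTG hearts ranged from 464 to 542 CPM (median 491) and 6 TG hearts from 399.9 to 444 CPM (median 425). This difference was -0.22 on the log2 scale (SE 0.044, adjusted p = 0.00026), and 2.57% of all genes had groups that did not overlap in this comparison. In sedentary females, by contrast, 8 nTG hearts ranged from 401 to 470 CPM (median 434) and 8 TG hearts from 404 to 479 CPM (median 424), a log2 fold change of -0.023 (SE 0.043, adjusted p = 0.86).

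Slc25a4 was lower in TG hearts in the same 3 strata. In sedentary males it ranged from 2729 to 3005 CPM (median 2865) in nTG and from 2181 to 2853 CPM (median 2532) in TG hearts, 8 of 9 of which were below every nTG heart. Its log2 fold change was -0.19 (SE 0.052, adjusted p = 0.0044), or -0.17 (adjusted p = 0.0145) without replicate 5 of the sedentary TG males. In trained males it ranged from 2836 to 3348 CPM (median 3077) in nTG and from 2099 to 2948 CPM (median 2757) in TG hearts, with 7 of 8 TG hearts below every nTG heart. The log2 fold change was -0.20 (SE 0.052, adjusted p = 0.0059), or -0.15 (adjusted p = 0.0241) without replicate 4 of the trained TG males. Trained females ranged from 2634 to 3195 CPM (median 2890) in nTG and from 2378 to 2808 CPM (median 2510) in TG hearts, a log2 fold change of -0.19 (SE 0.053, adjusted p = 0.0117). In sedentary females the ranges were 2282 to 3025 CPM (median 2662) in nTG and 2367 to 2671 CPM (median 2426) in TG hearts, and the log2 fold change of -0.12 (SE 0.052, adjusted p = 0.21) did not pass.

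**Figure D1:**
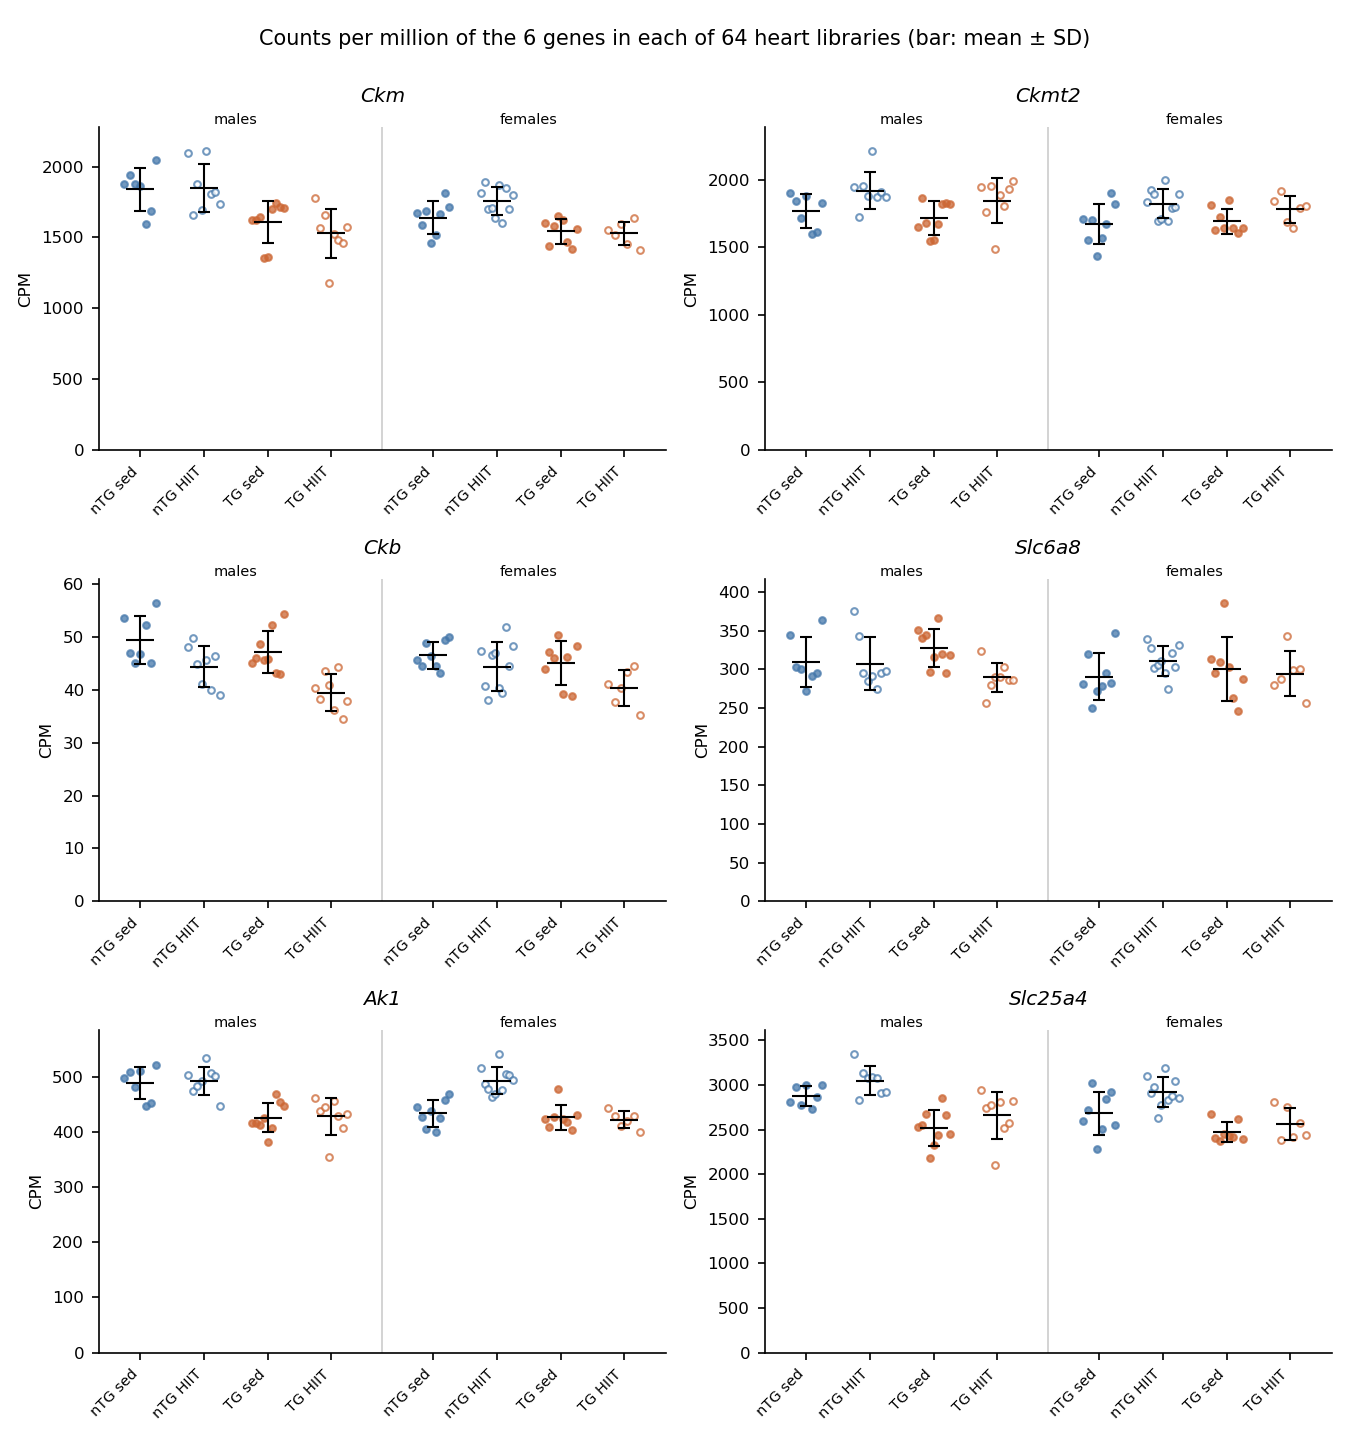
CPM (TMM-scaled library sizes, linear axes from 0) of each gene, with 1 point per heart, filled for sedentary and open for trained mice, blue for nTG and orange for TG, and black bars for the mean ± SD. Ak1 in trained females is the comparison of genotypes in which the points of the groups do not overlap, while Ckmt2 covers nearly the same range in nTG and TG hearts.

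Counted over the group, 3 of 6 genes were called lower in sedentary males, where 20.6% of all genes were called in either direction and 11.2% lower. The same 3 genes were called in trained males (14% of all genes called, 8.31% lower) and in trained females (14.8% called, 9.43% lower). None of the 6 was called in sedentary females by edgeR, where 4.37% of all genes were called: 1 of the 6 had an unadjusted p under 0.05, DESeq2 called 0 and limma voom called 1. Among all 16913 genes, 2767 had an unadjusted p under 0.05 there, DESeq2 called 851 and limma voom 1269. Averaged over the 4 strata, 4 of 6 genes were lower, with 39% of all genes called and 20.5% called lower: Ckm by -0.19 (SE 0.030, adjusted p = 3.14e-07), Slc25a4 by -0.17 (SE 0.026, adjusted p = 1.47e-07), Ak1 by -0.16 (SE 0.022, adjusted p = 7.96e-09) and Ckb as given above. Without replicate 5 of the sedentary TG males these means were -0.18, -0.16, -0.15 and -0.098 in that order, without replicate 4 of the trained TG males -0.17, -0.16, -0.15 and -0.10, and all 4 still passed. Being called lower in at least 3 of the 4 strata held for 3 of the 6 genes and for 4.19% of all genes. Markers of cell types moved with genotype as well. Of 8 cardiomyocyte markers, 5 and 3 were called lower in TG hearts in sedentary and trained males, 1 and 4 in sedentary and trained females, and none higher. Their median log2 fold changes in these strata were -0.20, -0.12, -0.12 and -0.18. In the mean over the strata 7 of the 8 were called lower, with a median of -0.16, close to the values of Ckm, Slc25a4 and Ak1. Of 6 fibroblast markers, 6, 4, 1 and 3 were called higher in the same order, and of 6 macrophage and leukocyte markers 6, 4, 0 and 4. Blood markers were called lower in trained TG males for 5 of 5 genes (median log2 fold change -1.22) and for 3 of 5 in the mean. Of the 3 measured skeletal muscle markers, all at 15.3 CPM or less, 1, 1, 0 and 2 were called higher in the order above, and 2 of 4 measured nerve and glia markers were higher in trained males. Of 4 atrial markers none was called in a single stratum and 1 was higher in the mean. Single genes of the smooth muscle and endothelial lists were lower in trained males, as was 1 of 3 measured fat markers in trained males and in trained females. The part of these shifts in the values of the 6 genes was not tested. In bulk tissue, fewer cardiomyocytes and less RNA per cardiomyocyte cannot be told apart.

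**Figure D2:**
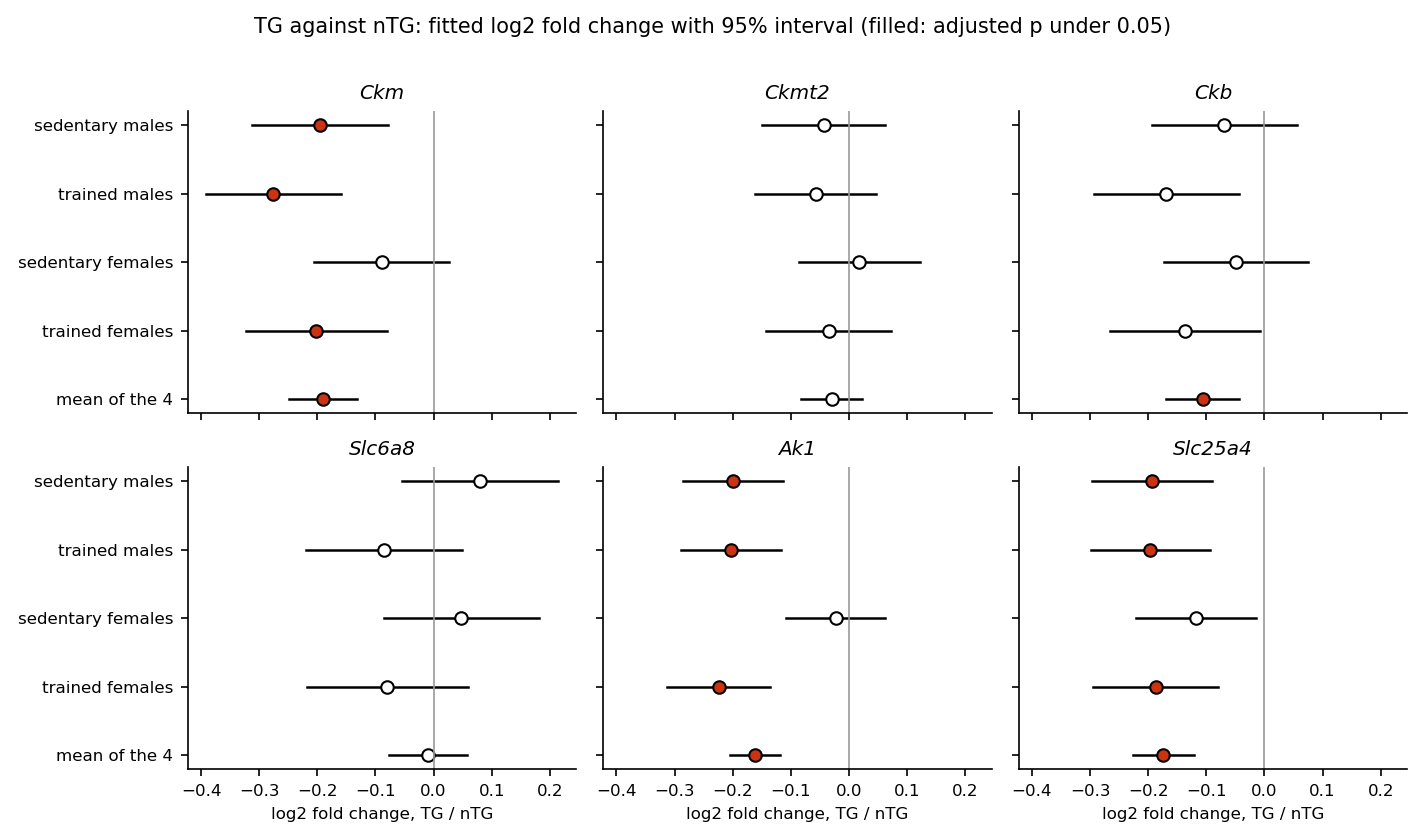
Fitted log2 fold change of TG over nTG hearts for each gene in the 4 strata and their mean, with 95% intervals as lines and filled points for an adjusted p under 0.05. Ckm, Ak1 and Slc25a4 sit left of 0 with filled points in all rows but sedentary females, and the intervals of Ckmt2 and Slc6a8 cross 0 in every row.

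The second question was what training did within each genotype and sex. Few of the 6 genes passed: Ckb and Slc6a8 were lower in trained than in sedentary TG males, and Ak1 was higher in trained than in sedentary nTG females. The groups are the ones used above, so these comparisons share libraries with those of genotype.

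In TG males, Ckb ranged from 43.002 to 54.4 CPM (median 45.8) in 9 sedentary hearts and from 34.5 to 44.4 CPM (median 39.4) in 8 trained hearts, and 6 of 8 trained hearts were below every sedentary heart. Its log2 fold change was -0.26 (SE 0.061, adjusted p = 0.0035), so that Ckb fell by 16.2%. Slc6a8 ranged from 295 to 366 CPM (median 320.0) in the sedentary and from 256 to 324 CPM (median 288) in the trained TG males, with 6 of 8 trained hearts below every sedentary heart. Its log2 fold change of -0.18 (SE 0.065, adjusted p = 0.0471) passed narrowly, and omitting single libraries lost the call in 9 of 64 fits, the highest adjusted p being 0.112. That call was also lost with library number as a covariate (-0.17, adjusted p = 0.0667). These were 2 of 6 genes where 18% of all genes were called and 7.6% called lower. The other 4 genes did not pass, and Ckmt2 had a log2 fold change of 0.10 (SE 0.051, adjusted p = 0.14), which became 0.13 (adjusted p = 0.0314) without replicate 4 of the trained group and passed with limma voom (0.13, adjusted p = 0.0281). Blood markers were lower in trained TG males for 5 of 5 genes, as were 2 of 5 endothelial, 3 of 6 macrophage and leukocyte, 1 of 6 fibroblast and 1 of 6 smooth muscle markers, while 2 of 8 cardiomyocyte markers and 1 of 4 measured nerve and glia markers were higher. The part of these shifts in the values of Ckb and Slc6a8 was not tested. Without replicate 5 of the sedentary group, the heart with the highest blood sum, Ckb stood at -0.27 (adjusted p = 0.0063) and Slc6a8 at -0.19 (adjusted p = 0.0446). Without replicate 4 of the trained group they stood at -0.27 (adjusted p = 0.0017) and -0.19 (adjusted p = 0.0351).

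In nTG females, Ak1 ranged from 401 to 470 CPM (median 434) in 8 sedentary hearts and from 464 to 542 CPM (median 491) in 10 trained hearts, 8 of which were above every sedentary heart. Its log2 fold change was 0.19 (SE 0.041, adjusted p = 0.0392), a rise of 13.7%, where 0.148% of all genes were called and 0.124% called higher. Omitting single libraries lost the call in 20 of 64 fits, with log2 fold changes from 0.16 to 0.20 and adjusted p up to 0.17, and the call was also lost with the replicate number as a block (0.18, adjusted p = 0.083), in a fit of these groups alone (0.18, adjusted p = 0.14), with plain library totals (0.12, adjusted p = 0.118) and without replicate 5 of the sedentary TG males (0.18, adjusted p = 0.0542). In nTG males the medians of Ak1 were nearly equal, at 498 CPM in sedentary and 497 CPM in trained hearts.

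In nTG males and in TG females no member passed, and edgeR called 0% of all genes in each. Of the 6, 2 and 1 had an unadjusted p under 0.05, and DESeq2 and limma voom each called 0. Over all genes, 999 and 606 had an unadjusted p under 0.05, DESeq2 called 4 and 0, and limma voom 1 and 3. Ckb pointed down after training in all 4 groups, with log2 fold changes of -0.16 in nTG males (adjusted p = 0.72), -0.069 in nTG females (adjusted p = 0.64) and -0.16 in TG females (adjusted p = 0.9998). Averaged over the sexes, Ckb was lower after training in TG mice by -0.21 (SE 0.045, adjusted p = 0.0296), where edgeR called 0.52% of all genes and 0.207% lower. In that comparison 3241 of all genes had an unadjusted p under 0.05, DESeq2 called 381 and limma voom 1807. In nTG mice the value of Ckb was -0.11 (SE 0.043, adjusted p = 0.23). That TG call was lost in 4 of the 64 fits, those without trained male replicate 2 or 7, sedentary female replicate 8 or trained female replicate 6, with adjusted p up to 0.1003, and in a fit of the TG groups alone (-0.21, adjusted p = 0.0679). It was kept without sedentary male replicate 5 (-0.21, adjusted p = 0.0411) and without trained male replicate 4 (-0.21, adjusted p = 0.0088). Ckmt2 pointed up in all 4 groups, with log2 fold changes from 0.073 to 0.13, none of which passed. Its mean over the sexes was 0.12 in nTG (SE 0.037, adjusted p = 0.11) and 0.089 in TG mice (SE 0.038, adjusted p = 0.19). Over nTG mice of both sexes 0 of the 6 genes were called by edgeR, where 0.384% of all genes were. Of the 6, 4 had an unadjusted p under 0.05, DESeq2 called 0 and limma voom 1. Among all 16913 genes, 2154 had an unadjusted p under 0.05, DESeq2 called 133 and limma voom 87.

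**Figure D3:**
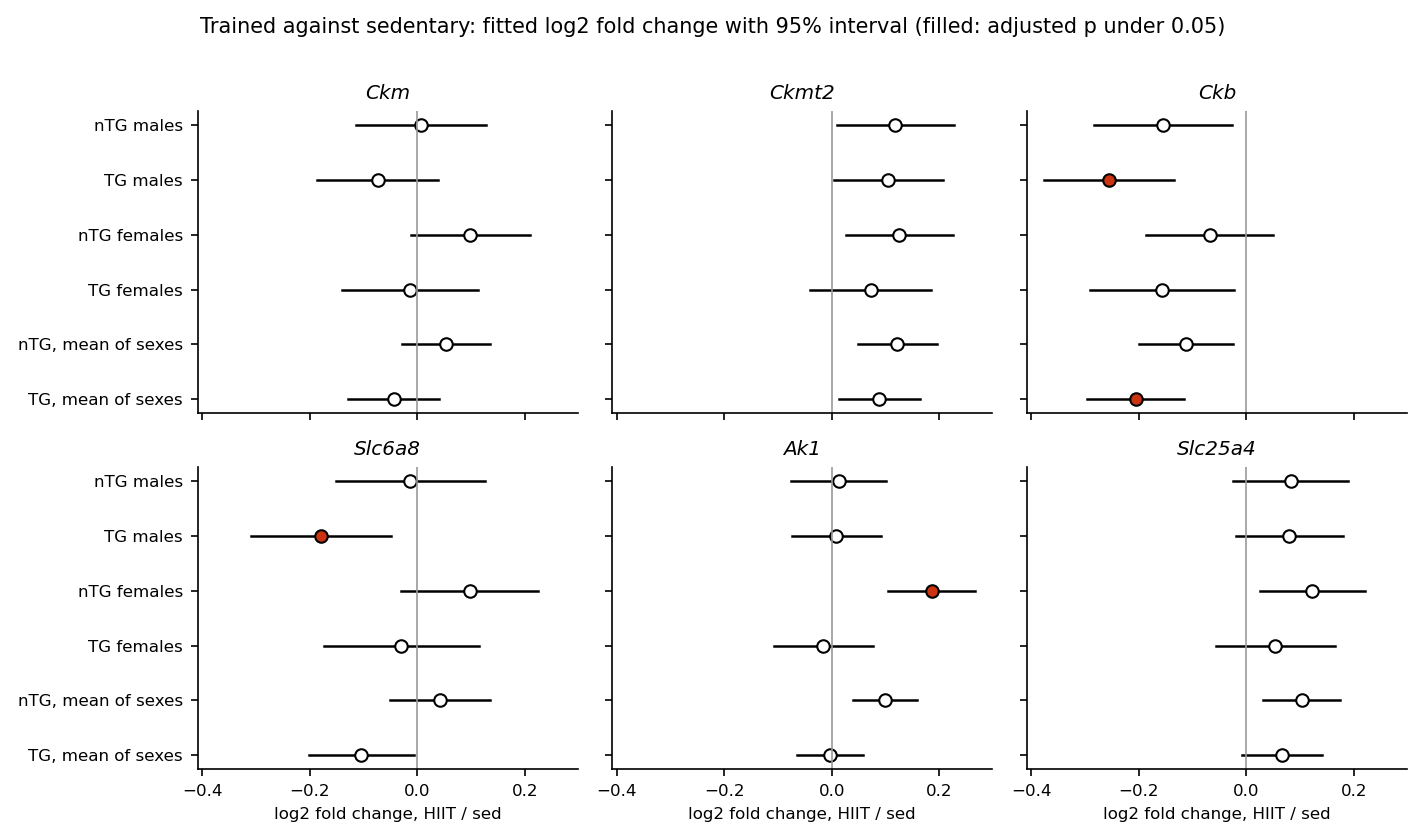
Fitted log2 fold change of trained over sedentary hearts for each gene in the 4 groups and in the means over the sexes, with 95% intervals as lines and filled points for an adjusted p under 0.05. Filled points are those of Ckb in TG males and in the TG mean, Slc6a8 in TG males and Ak1 in nTG females.

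Whether the effect of training depended on genotype, or the effect of genotype on sex, was tested as an interaction. No gene of the 6 passed in any of the 6 interaction tests by edgeR, DESeq2 or limma voom, and edgeR called 0% of all genes in each, with 910 to 3063 genes at an unadjusted p under 0.05, up to 166 genes called by DESeq2 and up to 927 by limma voom. Unadjusted p-values under 0.05 occurred only for Ak1, in 3 of the 6 tests. The genotype effect on Ak1 was lower in trained than in sedentary females by -0.20 on the log2 scale (95% interval -0.32 to -0.079, unadjusted p = 0.00172, adjusted p = 0.73). The genotype effect on Ak1 in sedentary mice was 0.18 higher in females than in males (95% interval 0.055 to 0.30, unadjusted p = 0.00498, adjusted p = 0.43). The training effect on Ak1 in nTG mice was 0.17 higher in females than in males (95% interval 0.053 to 0.29, unadjusted p = 0.0053, adjusted p = 0.74). All 3 contrasts use the sedentary nTG females, whose median of 434 CPM lay close to those of the TG groups. For Slc6a8 in males, the difference between the training effects of TG and nTG mice was -0.17 (95% interval -0.36 to 0.025, adjusted p = 0.41), so the fall in TG males is not shown to differ from the value in nTG males.

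All male libraries have lower library numbers than all female libraries. A difference between the sexes therefore cannot be told apart from one of library order. Between the sexes, Ak1 was the only member that passed in sedentary nTG mice. Female hearts ranged from 401 to 470 CPM and male hearts from 447 to 522 CPM, and 6 of 8 female hearts were below every male heart. The log2 fold change of female over male was -0.17 (SE 0.044, adjusted p = 0.0200), where 2.22% of all genes were called and 1.37% called lower, and it missed the threshold in 5 of 64 fits without 1 library. The call was also lost with library number as a covariate (-0.18, adjusted p = 0.0743), in a fit of these groups alone (-0.17, adjusted p = 0.0856) and with plain library totals (-0.097, adjusted p = 0.109). Averaged over genotype and training, all 6 values were negative after TMM scaling, from -0.075 for Ckm (adjusted p = 0.0685) to -0.030 for Ckb (adjusted p = 0.57), while Ckb, Slc6a8 and Ak1 turned positive with plain library totals. By edgeR 0 of the 6 passed, where 16.6% of all genes did. Of the 6, 4 had an unadjusted p under 0.05, DESeq2 called 0 and limma voom 3. Among all 16913 genes, 4881 had an unadjusted p under 0.05, DESeq2 called 2914 and limma voom 3568. Without replicate 4 of the trained TG males, edgeR called 3 of the 6 lower in females, and 1 of them, Ckm, without replicate 5 of the sedentary TG males.

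The 8 group means of each gene were put in order. Ckm and Slc25a4 placed the 4 nTG groups above the 4 TG groups, from 1849 ± 171 CPM (SD, n = 8) in trained nTG males to 1527 ± 83.3 CPM (n = 6) in trained TG females for Ckm, and from 3050 ± 161 CPM (n = 8) in trained nTG males to 2470 ± 111 CPM (n = 8) in sedentary TG females for Slc25a4. The step between the lowest nTG and the highest TG group was small, 0.22 times the larger SD of these groups for Ckm and 0.073 times for Slc25a4. Ak1 had 3 nTG groups between 489 and 494 CPM and the other 5 groups between 423 and 434 CPM, and the step between them, 54.9 CPM, was 1.88 times the larger SD of the groups on either side. With plain library totals the same groups stood on each side of a step of 23.0 CPM, 0.96 times the larger SD. Ckmt2 placed 4 trained groups first and 4 sedentary groups last, from 1922 ± 138 CPM (n = 8) in trained nTG males to 1673 ± 151 CPM (n = 8) in sedentary nTG females, and no neighbours in that order differed by more than their SD. With plain library totals these splits of Ckm, Slc25a4, Ckmt2 and Ckb into upper and lower groups were the same, but the order within them changed: sedentary nTG males were highest (1794 CPM) and trained TG males lowest (1512 CPM) for Ckm, and trained TG females were highest for Ckmt2 (1846 CPM). Ckb had its 4 sedentary groups above its 4 trained groups, with a step of 0.13 times the larger SD between them, with the trained TG groups at the bottom (40.4 ± 3.45 CPM in females, n = 6, and 39.5 ± 3.46 CPM in males, n = 8). Slc6a8 had no such order, and its group means spanned only 290 to 328 CPM.

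The balance of the kinases was described by the log2 ratio of CPM within each heart, which does not depend on library scaling. For Ckmt2 over Ckm in males the median was -0.059 in sedentary nTG (range -0.16 to 0.020), 0.064 in trained nTG (range -0.11 to 0.15), 0.092 in sedentary TG (range -0.021 to 0.20) and 0.30 in trained TG hearts (range 0.14 to 0.40). The trained TG males thus overlapped with the trained nTG males only between 0.14 and 0.15. In females the median was 0.023 in sedentary nTG, 0.070 in trained nTG, 0.17 in sedentary TG and 0.21 in trained TG hearts, with more overlap between neighbours. As a share of the creatine kinase signal per kb, Ckm was 34.3% ± 1.11 (SD, n = 7) in sedentary nTG males and 29.4% ± 1.32 (n = 8) in trained TG males. For Ckb over Ckm the medians were lower in trained than in sedentary hearts for each genotype and sex, for example -5.41 against -5.22 in nTG males and -5.37 against -5.07 in TG males, with overlapping ranges. No test was made of these ratios.

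**Figure D4:**
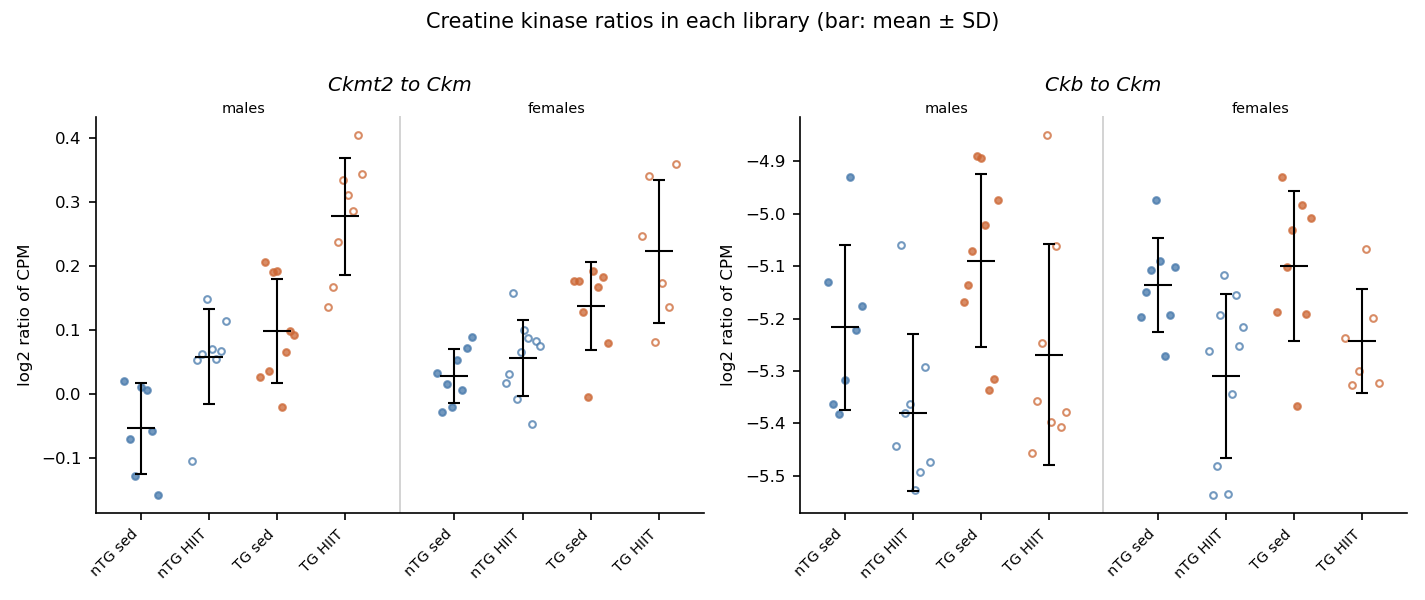
Log2 ratio of CPM of Ckmt2 to Ckm (left) and of Ckb to Ckm (right) in each heart, filled for sedentary and open for trained mice, blue for nTG and orange for TG, with black bars for the mean ± SD; the axes do not start at 0. The trained TG males are the highest group on the left, with a median of 0.30.

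Within groups, hearts with high Ckm also had high Ckmt2, Ak1 and Slc25a4. After the group means were subtracted, Pearson's r over the 64 libraries was 0.78 between Ckm and Ckmt2, 0.74 between Ckm and Ak1 and 0.70 between Ckm and Slc25a4. Ckb did not join them, with r of 0.23 to Ckm and -0.074 to Ckmt2, and its highest r was 0.49 to Slc6a8. All these values share library, depth and tissue composition and are descriptions only. Among 12049 named genes, those most like Ckm were Uqcrc1 (r = 0.87), a subunit of respiratory complex III, Pygm (0.84), the muscle glycogen phosphorylase, and Timm50 (0.83), part of the inner membrane protein import complex. Those most like Ckmt2 were the mitochondrial elongation factor Tufm (0.86), the complex I subunit Ndufs8 (0.82) and Uqcrc1 (0.80). Ak1 was closest to Txn2 (0.84), Endog (0.83) and Mdh2 (0.82), which all encode mitochondrial proteins, and Slc25a4 to Ldhb (0.86), Slc25a12 (0.82) and Sord (0.81). Ckb was closest to Smurf1 (0.68), Vasp (0.65) and Tpcn1 (0.65), and Slc6a8 to Larp1 (0.78), Hdgf (0.77) and Rab11fip5 (0.77).

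The wider system was followed in lists written with earlier results of these data known. They held 53 genes, the 6 among them, of which 46 were in the table. TG hearts had 18 lower and 4 higher in sedentary males, 16 and 1 in trained males, 3 and 1 in sedentary females, and 17 and 4 in trained females, with a median log2 fold change of -0.094, -0.086, -0.065 and -0.11 beside a median over all genes of -0.0052, 0.011, -0.00046 and 0.0020. Of all genes, 11.2%, 8.31%, 2.78% and 9.43% were called lower in these strata and 9.39%, 5.65%, 1.58% and 5.37% higher. Averaged over the strata, 26 of the 46 were lower and 7 higher, beside 20.5% and 18.5% of all genes. With plain library totals the lower and higher counts were 11 and 4 in sedentary males and 10 and 5 in trained males. They were 5 and 1 in sedentary females, 8 and 4 in trained females, and 19 and 7 in the mean. Over all genes, plain totals called 3525, 2805, 819 and 2517 genes in these strata and 7240 in the mean. Of these calls, 1000, 748, 606 and 674 were lower in the strata and 2066 in the mean. Genes that passed in every stratum after TMM scaling numbered 4, where 2.3% of all genes did. Fhl2, a LIM protein that tethers metabolic enzymes such as creatine kinase to the sarcomere, fell with log2 fold changes from -0.40 to -0.30. Adss1, the muscle adenylosuccinate synthase of the purine nucleotide cycle, fell from -0.22 in sedentary females to -0.37 in trained males, and Prkab1, a beta subunit of the energy sensor AMPK, from -0.25 to -0.37. Prkag3, an AMPK gamma subunit best known from skeletal muscle, was higher, with log2 fold changes from 0.55 to 0.68 and a mean of 0.64 (SE 0.066, adjusted p = 4.45e-12).

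Of the 11 measured genes of mitochondrial nucleotide and phosphate exchange, 7, 6, 0 and 6 were called lower in TG hearts in the order above, with 1 higher in trained females, while 9 were lower and 2 higher in the mean. With plain library totals the lower counts of this list were 5, 2, 2 and 3, and 8 in the mean. Of all 16913 genes, 1000, 748, 606 and 674 were then called lower, and 2066 in the mean. The phosphate carrier Slc25a3 had a mean log2 fold change of -0.20 (SE 0.025), the outer membrane channel Vdac1 -0.19 (SE 0.025), and Slc25a42, a carrier of coenzyme A and adenine nucleotides, -0.35 (SE 0.042). Slc25a5, the translocase of most other tissues, whose sequence has processed copies in the genome, was lower by -0.16 (SE 0.027), and the log2 ratio of Slc25a4 to Slc25a5 had medians between 4.22 and 4.33 in all 8 groups. Of 10 measured genes of adenylate kinases and adenine nucleotide turnover, 7 were lower and 1 higher in the mean, or 3 and 1 with plain library totals. In that mean, plain totals called 7240 of all 16913 genes, 2066 of them lower. Nt5c1a, a cytosolic nucleotidase that acts on AMP, was lower by -0.30 (SE 0.033), while Ampd2, an AMP deaminase, was higher by 0.21 (SE 0.045). In creatine synthesis and transport 1 of 4 passed, as it did with plain library totals: Gatm, the first enzyme of creatine synthesis, was higher by 0.38 in the mean (SE 0.079, adjusted p = 7.87e-05), though its value in sedentary females was -0.039. Of 8 AMPK genes 4 were lower and 2 higher under both scalings, beside 20.5% and 18.5% of all genes after TMM scaling, with Prkag1 at -0.19 (SE 0.024) and Prkag2 at -0.15 (SE 0.025).

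With TMM scaling, 5 of the 46 genes were called higher and 5 lower after training of TG males, shares close to those of all genes (10.3% and 7.6%). In nTG females Ak1 was the only one of the 46 called. With plain library totals, 2952 of all genes were called for training in TG males, 1958 of them lower. The values below are those with TMM scaling unless stated. The anion channels Vdac3 (0.30, SE 0.063), Vdac1 (0.18, SE 0.049) and Vdac2 (0.13, SE 0.040), the phosphate carrier Slc25a3 (0.16, SE 0.048) and the AMPK subunit Prkaa2 (0.20, SE 0.044) were higher in trained hearts. The nucleoside diphosphate kinase Nme4 (-0.42, SE 0.12), Ampd2 (-0.27, SE 0.086) and the carrier Slc25a23 (-0.20, SE 0.060) were lower, together with Ckb and Slc6a8. Some of these calls were close to the threshold. Slc25a3 and Ampd2 did not pass in a fit of the TG males alone (adjusted p = 0.0946 and 0.0538), nor did Vdac2 with plain library totals (0.090, adjusted p = 0.0538). In refits without 1 library, the call of Ampd2 was lost in 4, that of Slc25a3 in 2, and those of Vdac2 and Slc25a23 in 1 each, with adjusted p up to 0.0711. The libraries concerned were sedentary replicate 5 and trained replicate 7 for Slc25a3, trained replicate 7 for Vdac2 and Slc25a23, and sedentary replicate 6 and trained replicates 1, 2 and 7 for Ampd2. The cell type markers called in this comparison are those given above for Ckb and Slc6a8, and their part in these values was not tested either.

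**Figure D5:**
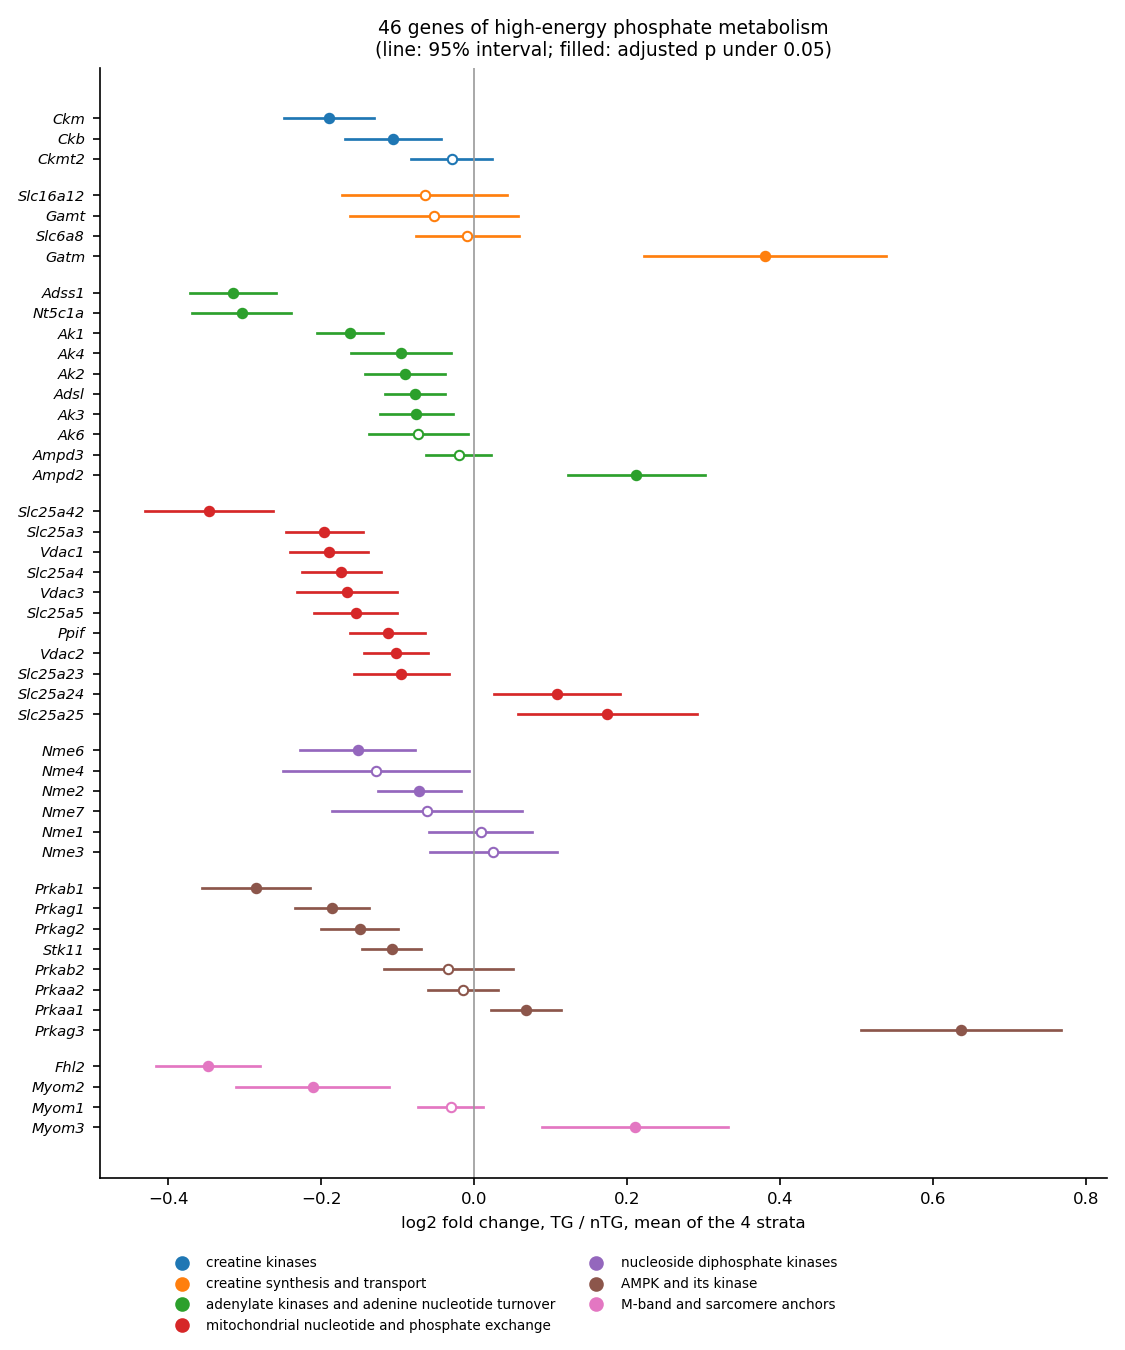
Fitted log2 fold change of TG over nTG hearts, mean of the 4 strata, for the 46 measured genes of the lists, coloured by list, with 95% intervals as lines and filled points for an adjusted p under 0.05. Genes left of 0 outnumber those right of it in the adenine nucleotide and mitochondrial exchange lists, and Prkag3 is the farthest right, at 0.64.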

How the data were processed

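Per the submitters' processing notes, cutadapt 2.3, FastQC 0.11.8, MultiQC 1.7, STAR 2.7.8a and RSEM 1.3.3 and the builds GRCm38 and mm10 were used, with no role given. Annotation release and strand setting are not given in the sources used here. The authors deposited a gene table of whole-number counts, not normalized. The lncRNA table holds expected counts as deposited by the authors, not normalized, and 45 of its 3787 rows held fractions. All columns were used, and the lncRNA values served only to pair gene columns with libraries (centred log2 CPM, pseudocount 0.5, transcripts with a mean of at least 20 counts).

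Symbols, positions and exon lengths came from GENCODE M21, which matched 16887 of 16913 identifiers. Counts were tested with edgeR 4.0.16 (TMM scaling, quasi-likelihood F test, 1 mean for each of the 8 groups, Benjamini-Hochberg adjustment over all genes), in R 4.3.3, and the scripts were tested on simulated data. CPM uses TMM-scaled library sizes, apart from the Tnnt2 values, the pairing of columns and values given with plain library totals. Within a group, replicates are separate mice per the labels, and no 2 libraries were treated as 1. The members, lists and tests were chosen with earlier results of these data known. The genes named are the 6 members, list genes that passed in at least 2 of the 4 genotype comparisons or in a training comparison, and the 3 genes with the highest r to each member.

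Alternatives were DESeq2 1.42.0, limma 3.58.1 (voom with quality weights), other scalings (among them plain library totals in the fit, added after seeing the data), no filter, fits of fewer groups, library number as covariate, a replicate block, columns by name and each library left out. Depth was 54066 counts or more per library for Ckm and 1457 or more for Ckb, so the spread between mice limits precision.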

Additional observations from a re-analysis of the deposited data

Results flagged for a closer look

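Of 48 sets of values (6 genes in 8 groups), 3 had 1 heart set apart from the others of its group by the gap test of Dixon at the 95% level, where chance gives about 1 in 20, or 2.4 of 48. Ckmt2 was 2214 CPM in replicate 5 of the trained nTG males, while the other 7 hearts of that group lay between 1723 and 1955 CPM. Ckmt2 was 1485 CPM in replicate 4 of the trained TG males, where the other 7 lay between 1761 and 1996 CPM; the same heart had the lowest Ckm, Ak1 and Slc25a4 of its group and the highest fibroblast and atrial sums of all libraries. Ak1 was 479 CPM in replicate 4 of the sedentary TG females, where the other 7 lay between 404 and 431 CPM. Of the 18 called values of the 6 genes, all 18 were still called without replicate 4 of the trained TG males, and 17 without replicate 5 of the sedentary TG males.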

How the results depend on the processing

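Of 82 log2 fold changes of the 6 genes, all 82 kept direction and side of the threshold with DESeq2 and with median-of-ratios size factors, and 81 with mitochondrially encoded genes left out of the scaling, where Ak1 after training in TG males turned from 0.0087 to -0.0055. These 3 moved no value by more than 0.015. The filter on low counts removed no gene, so leaving it out gave the same fit and is no separate check. Of the 18 called values, 10 were kept in every other alternative run for them apart from columns by name (8 in all, or 7 for the genotype mean, which has no fit of fewer groups), and 13 in all 64 fits without 1 library. The causes of the changes below were not tested. Most at risk are values close to the threshold or to 0, and the spread between mice, not depth, limits precision.

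With plain library totals in the fit, chosen after seeing the data, 12 of the 18 called values were kept and 6 lost. Of the 6 genes, 1 was called for genotype in trained females and 0 for training in nTG females and for sex in sedentary nTG mice. Values that changed sign were, for genotype, those of Ckmt2 in sedentary males (0.023), trained males (0.0020), trained females (0.043) and the mean (0.020), and of Slc6a8 in the mean (0.041). For training they were Ckm (-0.030) and Ak1 (-0.025) in nTG males, Ak1 in TG males (-0.035), Ckm (0.0065) and Ak1 (0.0039) in TG females and Slc6a8 in the nTG mean (-0.0078), and for sex over all groups Ckb (0.015), Slc6a8 (0.00094) and Ak1 (0.00032). Over all genes, the share of calls that were lower moved from 52.6% to 28.5% in the genotype mean, from 42.4% to 66.3% for training in TG males, from 15.4% to 95.5% for training over nTG mice, from 61.9% to 14.7% for sex in sedentary nTG mice and from 55.5% to 17.3% for sex over all groups, with the median of all genes shifted by up to 0.083 in any comparison.

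With library number as a covariate, 1 of 6 genes was called for training in TG males and 0 for sex in sedentary nTG mice, where Slc6a8 turned to 0.0032, as it did to 0.060 in the mean over groups. For the sexes this covariate is no separate check, because all males have lower library numbers than all females. With fits of fewer groups, 0 were called for training in nTG females, for the TG mean and for sex in sedentary nTG mice. With limma voom, 1 was called for genotype in sedentary females (Slc25a4, -0.15), 3 for training in TG males (Ckmt2 added, 0.13), 1 for training over nTG mice, 2 over TG mice and 3 for sex over all groups. Of all 16913 genes, limma voom called 1269, 4541, 87, 1807 and 3568 in the same order. Its values turned to -0.015 for Ckm after training in nTG males, and for Ak1 to 0.0063 in TG females and 0.018 in the TG mean.

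Replicate numbers were not taken to pair the libraries: over 205 pairs of the same number the median r of deviations from the group means was 0.010, and 51 pairs were above 0.1, beside a median of -0.00047 and 296 pairs above 0.1 among 1582 pairs of other numbers. With the replicate number as a block, 0 genes were called for training in nTG females, Ak1 in the TG mean of training turned to 0.0040, and no other call changed.

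With gene columns by their own name, which go against sex and genotype labels, 0 of the 6 were called in each comparison in which members had been called, while 3 were called for training over nTG mice. Values that changed sign were, for genotype in sedentary males, 0.036 (Ckm), 0.045 (Ckmt2), 0.075 (Ckb) and 0.013 (Ak1), in trained males 0.036 (Ckm), 0.032 (Ckb), 0.0054 (Slc6a8), 0.038 (Ak1) and 0.020 (Slc25a4), in sedentary females -0.052 (Ckmt2), in trained females 0.034 (Ckmt2), and in the mean 0.00051 (Ckm), 0.00089 (Ckb), 0.031 (Slc6a8), 0.055 (Adss1), 0.020 (Nt5c1a) and -0.012 (Ampd2). For training they were, in nTG males, -0.17 (Ckm), -0.012 (Ckmt2), 0.0065 (Slc6a8), -0.15 (Ak1) and -0.19 (Slc25a4), in TG males -0.099 (Ckmt2), -0.12 (Ak1), -0.11 (Slc25a4), -0.061 (Vdac3), -0.080 (Vdac1), -0.083 (Slc25a3), -0.047 (Vdac2) and -0.0015 (Prkaa2), in nTG females -0.13 (Ckm), -0.056 (Ckmt2), -0.12 (Ak1) and -0.11 (Slc25a4), in TG females -0.092 (Slc25a4), in the nTG mean -0.15 (Ckm), -0.034 (Ckmt2), -0.13 (Ak1) and -0.15 (Slc25a4), and in the TG mean -0.035 (Ckmt2) and -0.10 (Slc25a4). For sex they were 0.041 (Ckm), 0.077 (Ckmt2), 0.080 (Ckb) and 0.062 (Ak1) in sedentary nTG mice, and 0.026 (Ckm), 0.050 (Ckmt2), 0.027 (Ak1) and 0.022 (Slc25a4) over all groups. For the interactions of Ak1 they were 0.028 for genotype by training in females and -0.094 for genotype by sex in sedentary mice.

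Over the 64 fits without 1 library, the number of genes called ran from 3 to 4 for genotype in trained males, from 2 to 3 for genotype in trained females, from 1 to 3 for training in TG males, from 0 to 1 for training in nTG females, from 0 to 1 for the TG mean of training, from 0 to 1 for sex in sedentary nTG mice and from 0 to 3 for sex over all groups. Small values that crossed 0 ran, for genotype in sedentary females, from -0.0057 to 0.047 (Ckmt2) and from -0.013 to 0.088 (Slc6a8), and for the genotype mean from -0.024 to 0.0034 (Slc6a8). For training they ran from -0.023 to 0.034 (Ckm), from -0.059 to 0.030 (Slc6a8) and from -0.0063 to 0.032 (Ak1) in nTG males, from -0.018 to 0.033 (Ak1) in TG males, from -0.035 to 0.0081 (Ckm), from -0.079 to 0.031 (Slc6a8) and from -0.030 to 0.0095 (Ak1) in TG females, and from -0.017 to 0.0091 (Ak1) in the TG mean.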
